A study of Mus musculus with 6 samples.

Results

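Brown and beige adipocytes, the heat-producing cells of fat, release proteins that act on nearby vessels and nerves and on distant organs, often called batokines. Expression of 7 such genes was followed in inguinal white adipose tissue, a subcutaneous depot in which beige adipocytes can form. They were Nrg4, Vegfa, Metrnl, Fgf21, Bmp8b, Slit2 and Gdf15, and every probe set annotated to them in the platform table was taken. The table lists 6 probe sets, 1 for each gene except Gdf15, out of 34760 probe sets on the array. Gdf15, a stress-induced member of the TGF-beta superfamily, was not analysed here.

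RNA came from 3 wild-type (WT) mice and 3 Atf7 knockout (KO) mice, 1 Affymetrix array each. All were males on the C57BL/6 background, aged 5 weeks, and the WT mice were littermates bred from Atf7 heterozygotes. No treatment, cold exposure or conditional allele is named, so the knockout is described for the whole animal and not for adipocytes alone. The comparison of KO with WT bears, as the series title puts it, on the role of this bZIP transcription factor in adipocyte differentiation and thermogenic genes. Values are RMA expression values on the log2 scale.

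The labels were checked on Atf7 itself. Its probe set 10433032 was at 6.22, 6.53 and 6.49 in KO and 8.95, 9.20 and 9.07 in WT, while probe set 10433034 overlapped between groups (9.25 ± 0.16 against 9.42 ± 0.09, SD, n = 3). The adipocyte marker Adipoq had means of 12.46 in KO and 12.47 in WT. Of the whole set, 0 of the 9 measured adipocyte markers had an unadjusted p under 0.05. Over 19937 genes, 4.06% were higher in KO and 1.79% lower by that rule. A count of 0 among 9 is near that share and does not show equal adipocyte content. KO replicate 3 stood apart, with correlations of 0.969 to 0.981 to the other arrays, which among themselves lay between 0.984 and 0.990. Its mean over B cell and T cell markers, each centred over the arrays, was -2.45, against -0.10 and 0.63 in the other KO arrays and 0.50 to 0.76 in WT. Of these markers, 10 of 11 B cell and 13 of 13 T cell genes had a lower mean in KO, where 9362 of all 19937 genes did. The 10 skeletal muscle markers also did, at centred levels of 1.53, -1.41 and -1.70 in KO and -1.56, 2.51 and 0.64 in WT, as did the 8 keratinocyte and gland markers, at 1.11 in WT replicate 2 and -0.32 to -0.16 elsewhere. Other cell types went the other way, with a higher mean in KO for 8 of 8 mast cell and 8 of 10 macrophage markers. The part of all these cells in the differences reported here was not tested. The mean of 12 thermogenic markers, which include Ucp1 and Cidea, was 0.54, 0.24 and 0.81 in KO and -0.26, -0.62 and -0.70 in WT. Of the 12, 10 had a higher mean in KO. The 2 with a lower mean were Elovl3 and Cpt1a, with log2 differences (KO minus WT) of -0.06 and -0.17. In whole tissue, fewer cells of a type and less RNA per cell cannot be told apart.

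Batokines belong to unrelated protein families and share a tissue of origin rather than a pathway. Nrg4, an epidermal growth factor-like ligand, signals through ErbB receptors and acts on liver and on nerve endings in fat. Vegfa drives the growth of capillaries, which supply oxygen and fuel to thermogenic fat, and Slit2 and Bmp8b bear on thermogenesis as a cleaved axon guidance protein and a bone morphogenetic protein. Metrnl is a secreted homologue of meteorin linked to immune cells and beiging. Fgf21 is an endocrine fibroblast growth factor that needs the co-receptor beta-Klotho.

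Nrg4, Vegfa and Metrnl were higher in KO, with every KO array above every WT array, and by 1.51-fold, 1.399-fold and 1.22-fold. Fgf21, Bmp8b and Slit2 overlapped between the groups. At an unadjusted p under 0.05, 3 of the 6 probe sets were higher and 0 lower, where 4.05% of all probe sets were higher and 2.84% lower by that rule. These genes, like the lists compared below, were chosen with earlier results of these data known, so such counts are not independent evidence. None of the 6 passed adjustment over all probe sets, with a smallest adjusted p of 0.696 from limma. The adjusted rule called 0 probe sets higher in KO and 2 lower, or 0.00575%, over the whole array. Those lower included Atf7's own probe set 10433032 (adjusted p of 0.00658 from limma). KO lay above WT on all arrays for 7.10% of probe sets and below for 5.97%. On simulated data for KO against WT, the adjusted rule recovered 0.8% of log2 changes of 0.5 and 53.6% of changes of 1, so differences of the size seen in these genes are mostly below its reach with 3 arrays a group.

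**Figure D1:**
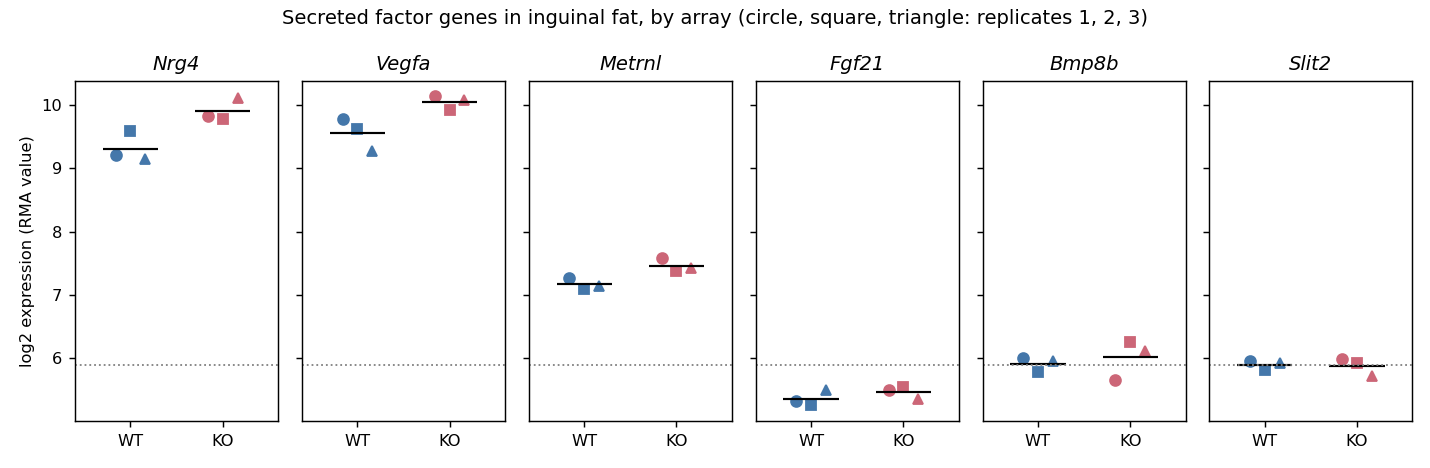
Log2 expression (RMA value) of the 6 measured secreted factor genes on each array, WT in blue and KO in red; circles, squares and triangles are replicates 1, 2 and 3, bars are group means, and the dotted line at 5.90 is the 95th percentile of olfactory and vomeronasal receptor probe sets. The KO points of Nrg4, Vegfa and Metrnl all sit above their WT points, whereas those of Fgf21, Bmp8b and Slit2 overlap near the dotted line.

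The start regions of the 3 higher genes and of Fgf21 are shown because the deleted factor belongs to the ATF/CREB family, whose members bind the cAMP response element. Each stretch runs from 250 to 31 bases before the RefSeq start (build GRCm38.p6), 220 bases read 5′ to 3′ along the gene's own strand. The first promoter entry of each gene was used, and for Nrg4 its start lies inside the gene's outer limit at 55283654. Capitals mark any match, on either strand, to the motifs searched. These were the cAMP response element TGACGTCA, its short core TGACG, the AP-1 element TGANTCA, the ATF-C/EBP composite element TGATGNAAT, the hypoxia response core ACGTG and the GC box GGGCGG.
Nrg4, chr9:55283656-55283875, minus strand: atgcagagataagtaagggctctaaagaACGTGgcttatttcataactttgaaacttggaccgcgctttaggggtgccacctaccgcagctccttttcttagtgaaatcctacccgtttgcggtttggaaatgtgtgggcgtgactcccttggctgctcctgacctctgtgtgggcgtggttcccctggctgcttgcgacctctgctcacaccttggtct
Vegfa, chr17:46032408-46032627, minus strand: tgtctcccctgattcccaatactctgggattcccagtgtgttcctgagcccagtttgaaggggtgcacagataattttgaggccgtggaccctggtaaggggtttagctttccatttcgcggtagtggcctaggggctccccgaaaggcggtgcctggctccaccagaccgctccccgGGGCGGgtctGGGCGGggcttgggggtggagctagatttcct
Metrnl, chr11:121702177-121702396, plus strand: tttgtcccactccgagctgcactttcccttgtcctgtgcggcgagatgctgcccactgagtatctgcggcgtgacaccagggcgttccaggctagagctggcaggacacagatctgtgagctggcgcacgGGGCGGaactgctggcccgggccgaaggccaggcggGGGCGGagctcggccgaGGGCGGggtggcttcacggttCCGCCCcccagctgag
Fgf21, chr7:45615521-45615740, minus strand: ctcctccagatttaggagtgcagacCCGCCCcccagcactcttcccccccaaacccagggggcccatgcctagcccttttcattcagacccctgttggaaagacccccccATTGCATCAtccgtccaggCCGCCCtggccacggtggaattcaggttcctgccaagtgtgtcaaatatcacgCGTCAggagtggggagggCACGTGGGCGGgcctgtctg
All 6 measured genes had a promoter entry, and the letters TGACGTCA and TGANTCA were in none of these 6 stretches. The full cAMP response element is present in 1.14% of 32841 mouse promoter stretches of this length and the AP-1 element in 6.12%. Fgf21 alone of the 6 held the composite element, as ATTGCATCA between 140 and 132 bases before the start, which 0.682% of promoters contain in either orientation. It also held the core TGACG (14.8% of promoters) and overlapping matches to ACGTG in the run that reads CACGTG, which shares its last base with a GC box. Nrg4 had ACGTG once, 222 to 218 bases before the start, as did Bmp8b at 112 to 108 (14.4% of promoters). Metrnl had 4 GC boxes, Fgf21 and Slit2 3 each, Vegfa 2, Bmp8b 1 and Nrg4 none (28.5% of promoters have any). The Metrnl stretch was 68.6% G and C and that of Nrg4 52.7%. A match describes letters and not binding.

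Nrg4 was at 9.83, 9.78 and 10.12 in the KO arrays and at 9.21, 9.59 and 9.14 in the WT arrays. The KO arrays were all higher, and the closest values were WT replicate 2 and KO replicate 2. Means were 9.91 ± 0.18 in KO and 9.31 ± 0.24 in WT (SD, n = 3). The log2 difference was 0.59 (SE 0.16, 95% interval 0.21 to 0.97), with an unadjusted p of 0.00785 and an adjusted p of 0.696 from limma. KO replicate 3 had the highest Nrg4 and the lowest lymphocyte score (-2.45), and KO replicate 2, at 9.78, had a score of 0.63. Leaving KO replicate 3 out gave a difference of 0.49, and adding the lymphocyte score to the fit gave 0.43 (unadjusted p of 0.0230 and 0.0392 from limma).

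Among the receptors of Nrg4, Erbb4, its main signalling receptor, was at 6.11, 6.01 and 6.77 in KO and 6.03, 5.63 and 5.61 in WT. The groups overlapped through KO replicate 2 and WT replicate 1, KO replicate 3 was the highest array, and the log2 difference was 0.54 (95% interval 0.00 to 1.09). The WT mean of Erbb4, 5.76, was below 5.90, the 95th percentile of the olfactory receptor probe sets. Erbb3, which also binds neuregulins, differed by -0.35 (-0.96 to 0.26) and reached 7.14 in WT replicate 2 only, the array with the highest keratinocyte and gland markers. Erbb2, the shared partner without a ligand of its own, differed by -0.09 (-0.35 to 0.18). Nrg2, a related neuregulin, was lower in every KO array, at 6.31 to 6.38 against 6.60 to 6.64 (log2 -0.26, SE 0.09). Nrg4 was thus the only one of the 4 neuregulin genes with all KO arrays above all WT arrays, as Nrg1 and Nrg3 overlapped near the level of olfactory receptor probe sets.

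Vegfa was at 10.14, 9.93 and 10.08 in KO and 9.78, 9.63 and 9.28 in WT. Every KO array was higher, and the WT arrays were spread more widely, with WT replicate 3 the lowest. The means were 10.05 ± 0.11 and 9.56 ± 0.26 (SD, n = 3), and the log2 difference was 0.48 (SE 0.15, 95% interval 0.13 to 0.84), with an adjusted p of 0.696 from limma. Leaving out WT replicate 3 gave 0.34, and leaving out KO replicate 1 gave 0.44 with an unadjusted p of 0.0519 from limma. Adding the lymphocyte score to the fit gave 0.44 with an unadjusted p of 0.0589. The single probe set covers the gene as a whole, so its splice forms were not told apart.

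The receptors and relatives of Vegfa named here all had a higher mean in KO, some with groups that overlapped. Nrp2, a neuropilin co-receptor of vascular and lymphatic endothelium, was at 8.39, 8.39 and 8.48 in KO and 8.09, 8.02 and 7.79 in WT, so that the groups did not overlap (log2 0.45, SE 0.11). Flt1, a high-affinity receptor that can act as a decoy, differed by 0.32 (95% interval 0.01 to 0.64), with KO replicate 2 at 8.39 just below WT replicate 1 at 8.40. Kdr, the main signalling receptor, differed by 0.23 (-0.24 to 0.69) and was low in WT replicate 3 alone, at 8.23. Vegfd, a lymphatic growth factor, was higher in every KO array (8.59 to 9.31 against 8.38 to 8.56, log2 0.50), while Vegfb differed by 0.26 (-0.24 to 0.76). Of the 10 endothelial markers, which include Kdr, 9 had a higher mean in KO, 1 of them, Tek, at an unadjusted p under 0.05. The exception, Pecam1, differed by -0.26 (-0.60 to 0.08). Of 19937 genes over the array, 10575 had a positive difference and 4.06% were higher by that rule. The centred level of the 10 markers was 0.21, -0.07 and 0.19 in KO and 0.06, -0.12 and -0.26 in WT, which overlapped. The part of vessel content in the Vegfa values was not tested.

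Metrnl was at 7.58, 7.38 and 7.42 in KO and 7.26, 7.10 and 7.15 in WT. All KO arrays were higher, by a margin of about the spread within a group. Means were 7.46 ± 0.11 and 7.17 ± 0.08 (SD, n = 3), a log2 difference of 0.29 (SE 0.10, 95% interval 0.04 to 0.54) with an adjusted p of 0.696 from limma. Its size held at 0.23 to 0.34 without each array in turn. The unadjusted p of 0.0280 from limma depended on single arrays, at 0.0825 when WT replicate 2 was left out, 0.0693 for WT replicate 3 and 0.101 for KO replicate 1. Adding the lymphocyte score to the fit gave 0.0558. Its paralogue Metrn, a neurotrophic protein, differed in the other direction, by -0.12 (-0.35 to 0.11). Kit, a receptor tyrosine kinase reported to bind Metrnl, differed by 0.02 (-0.36 to 0.41).

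Fgf21 was at 5.51, 5.54 and 5.36 in KO and 5.32, 5.26 and 5.50 in WT, and the groups overlapped. Its means in both groups were below 5.90, the 95th percentile of 1208 probe sets for olfactory and vomeronasal receptors, genes not known to be used in fat. The log2 difference was 0.11 (95% interval -0.15 to 0.37). Klb, which encodes beta-Klotho, was at 9.26, 8.41 and 9.98 in KO and 8.94, 9.10 and 8.91 in WT. The KO arrays thus lay both above and below WT, with an SD of 0.79 against 0.10. Fgfr1, the fibroblast growth factor receptor that pairs with beta-Klotho in fat, differed by 0.13 (-0.23 to 0.49).

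Bmp8b was at 5.66, 6.26 and 6.12 in KO and 6.01, 5.78 and 5.96 in WT. KO replicate 1 was the lowest of the 6 arrays and KO replicate 2 the highest, so the direction rested on single arrays. The difference of 0.10 (95% interval -0.31 to 0.51) was 0.28 when KO replicate 1 was left out and -0.02 when KO replicate 2 was. Its close paralogue Bmp8a differed by -0.06 (-0.32 to 0.21), and how far the probes of the pair tell both genes apart was not tested. The activin-like receptor Acvr1c differed by 0.01 (-0.58 to 0.60), the type I receptors Bmpr1a and Bmpr1b by 0.23 and -0.02, and the type II receptor Bmpr2 by 0.29 (SE 0.13), with all KO arrays higher. Bmp6, another bone morphogenetic protein, was at 8.13, 7.86 and 8.44 in KO and 7.82, 7.61 and 7.45 in WT (log2 0.52, SE 0.17).

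Slit2 was at 5.99, 5.93 and 5.72 in KO and 5.96, 5.82 and 5.93 in WT, with a difference of -0.03 (95% interval -0.29 to 0.24). Its sign turned, to 0.00 after a shift of arrays to a common median and 0.08 with the lymphocyte score in the fit. Bmp8b and Slit2 had levels close to the 95th percentile of the olfactory receptor probe sets. Slit3, a paralogue with the same receptors, was higher in every KO array, at 9.83, 9.59 and 10.01 against 9.48, 9.34 and 9.52 (log2 0.36, SE 0.13). Robo2, a receptor of Slit proteins, was lower in every KO array, at 5.61, 5.93 and 5.08 against 6.11 to 6.26. Its difference was -0.63 (SE 0.21), with KO replicate 3 the lowest array and a KO mean of 5.54, below that 95th percentile. Robo1 differed by -0.26 (-0.59 to 0.07) and Robo4, the endothelial member, by 0.15 (-0.27 to 0.56). For the receptors of Gdf15, Gfral was near the olfactory receptor level (4.10 in KO, 3.92 in WT) and Ret differed by 0.36 (-0.06 to 0.78).

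**Figure D2:**
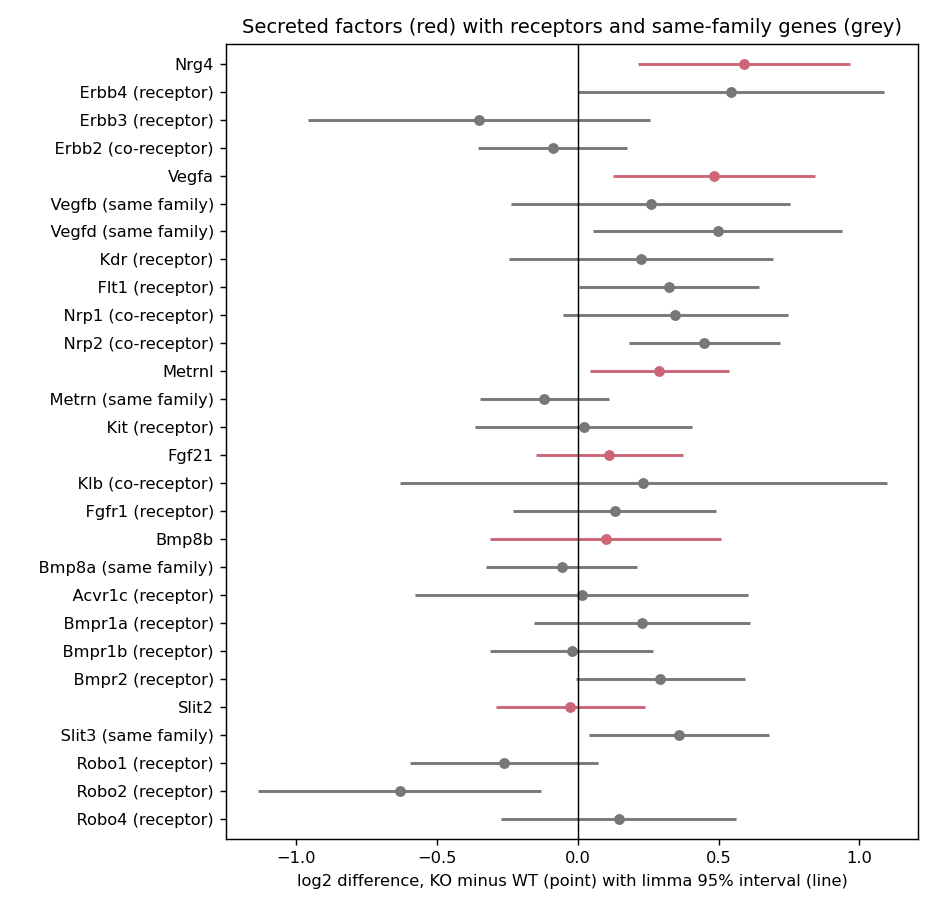
Log2 difference (KO minus WT) with limma's 95% interval for each secreted factor (red) and, under it, its receptors and same-family genes (grey), 3 arrays a group. Among the genes plotted, which leave out Nrg2 and Bmp6, the intervals of Nrg4, Vegfa and Metrnl lie above 0, as do those of Nrp2, Vegfd, Slit3, Flt1 and, barely, Erbb4, and that of Robo2 lies below 0.

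Over whole lists of receptors and relatives, the counts at an unadjusted p under 0.05 changed when single arrays were left out. The brightest probe set stood for each gene. Of 30 receptors and co-receptors 19 were positive, with a median log2 difference of 0.08, and 3 were higher and 1 lower at an unadjusted p under 0.05. Over 19937 genes 10575 were positive, the median was 0.01, and 4.06% were higher and 1.79% lower by that rule. These 4 were Nrp2, Flt1, Erbb4 and Robo2. Leaving out KO replicate 3 brought the median to 0.00, with 1 higher and 1 lower, whereas leaving out KO replicate 2 brought it to 0.16, with 8 higher and 1 lower. Leaving out WT replicate 2, WT replicate 3 or KO replicate 1 also left 1 higher. With the lymphocyte score in the fit the median was -0.06, with 1 higher and 2 lower. Of 37 ligands of the same families 25 were positive (median 0.08), with 6 higher and 1 lower. Besides Bmp6, Slit3, Vegfd and Nrg2 these included Fgf2 (log2 0.53) and Fgf1 (0.26), growth factors of vessels and fat cell precursors. The sixth higher gene was Bmp5, near the olfactory receptor level and named after its value was seen. Only 1 ligand was higher when KO replicate 1, KO replicate 3, WT replicate 1 or WT replicate 2 was left out, or with the lymphocyte score in the fit, and 3 were when WT replicate 3 was. No gene of these lists passed adjustment over all probe sets (smallest adjusted p of 0.696 from limma).

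Other secreted products of brown and beige fat included larger differences than the batokines above. Of 26 measured genes 17 were positive, with a median of 0.15, and 5 were higher and 0 lower at an unadjusted p under 0.05. Over all 19937 genes 10575 were positive, with 4.06% higher and 1.79% lower by that rule. This list too was chosen with earlier results of these data known, so its counts are not independent evidence. Pm20d1, a secreted enzyme that joins fatty acids to amino acids, was at 6.73, 6.47 and 7.24 in KO and 5.78, 5.58 and 5.69 in WT. The groups were far apart, by 2.19-fold (log2 1.13, SE 0.20), although the adjusted p was 0.5003 from limma. The WT mean of Pm20d1, 5.68, lay below 5.90, the 95th percentile of the olfactory receptor probe sets. Lgi1, a secreted leucine-rich repeat protein, was at 7.53, 6.76 and 7.64 in KO and 6.32, 6.25 and 6.20 in WT, 2.08-fold higher (log2 1.06, SE 0.23). S100b, a calcium-binding protein that supports sympathetic fibres in thermogenic fat and also marks Schwann cells, was 1.51-fold higher, at 6.40 to 6.92 against 5.93 to 6.15. Of the 6 measured Schwann cell and nerve genes, which include S100b, 5 had a higher mean in KO. S100b and Mbp were the 2 of them with an unadjusted p under 0.05. Differences were 0.32 for the myelin gene Mbp, 0.19 for Pmp22, 0.02 for the Schwann factor Sox10 and -0.06 for Th, of sympathetic nerves. Th and Dbh, the latter with a difference of 0.14, were near the olfactory receptor level. Kng2, a kininogen, differed by 0.50 near the olfactory receptor level. The fifth gene, Sfrp5, an inhibitor of Wnt signalling named after its value was seen, differed by 0.43. Its WT mean of 5.75 was also below 5.90. With any single array left out 4 to 7 of these genes were higher, and 5 were with the lymphocyte score in the fit. The median lay between 0.09, when either WT replicate 1 or KO replicate 1 was left out, and 0.26, when KO replicate 2 was.

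Several known products of thermogenic fat overlapped between groups with wide intervals. Angptl4, an inhibitor of lipoprotein lipase, differed by 0.59 (95% interval -0.43 to 1.61) and was low in WT replicate 2 (9.36). Cxcl14, a chemokine that recruits macrophages, differed by 0.33 with an SD of 0.86 in KO. Igf1 and the energy homeostasis peptide gene Enho differed by -0.04 and -0.11, and Il6 was near the olfactory receptor level in both groups. These 5 were named after their values were seen.

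**Figure D3:**
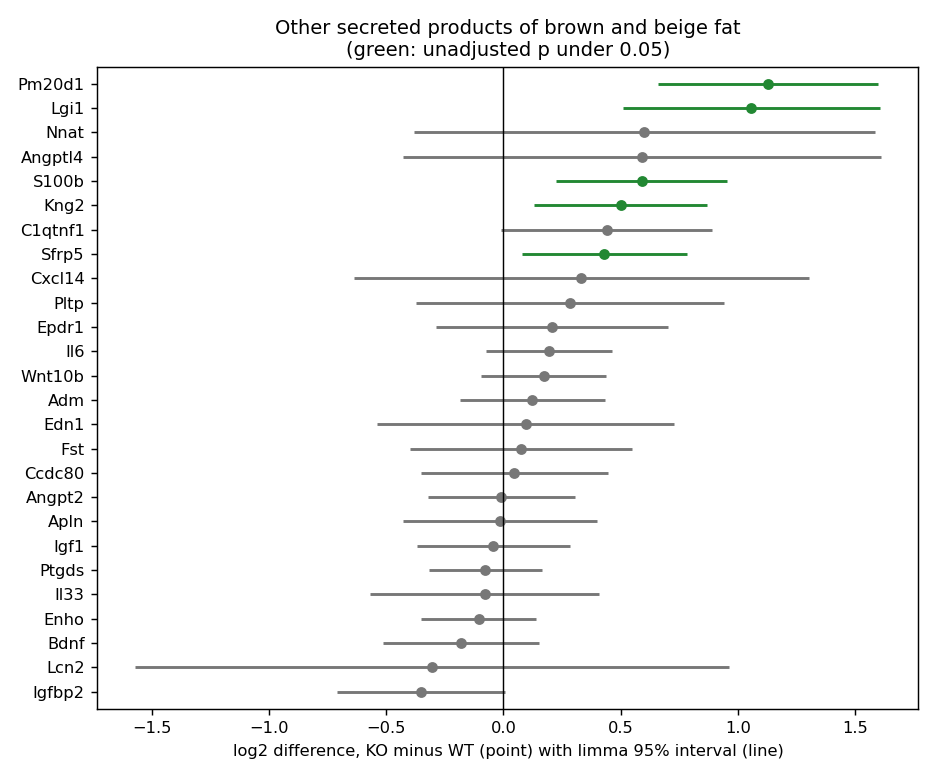
Log2 difference (KO minus WT) with limma's 95% interval for 26 other secreted products of brown and beige fat, ordered by difference, 3 arrays a group; green marks an unadjusted p under 0.05. Pm20d1 (1.13) and Lgi1 (1.06) head the list, and none of the 26 lies below 0 with its whole interval.

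Genes that control the batokines were compared next. Of 14 measured regulators 12 were positive, with a median of 0.45, and at an unadjusted p under 0.05 there were 5 higher and 0 lower. By the same rule 4.06% of 19937 genes were higher and 1.79% lower, and 10575 were positive. Ppara, a nuclear receptor that induces Fgf21 in liver and fuel burning genes in fat, was at 9.44, 8.95 and 9.48 in KO and 8.58, 7.73 and 7.54 in WT (log2 1.34, SE 0.29). The coactivators Ppargc1a and Ppargc1b, which promote mitochondrial biogenesis and can induce Vegfa, differed by 0.86 and 0.67. Ppargc1a was at 7.90 to 8.82 in KO and 7.18 to 7.60 in WT, and KO replicate 3 was the highest. Esrrg, an orphan receptor that works with them, differed by 0.54. The fifth gene, the thyroid hormone receptor Thrb, named after its value was seen, differed by 0.56. Leaving out WT replicate 3 gave a median of 0.25 and leaving out KO replicate 3 one of 0.41, and 5 or 6 genes were higher whichever array was left out. Part of this list was already known from earlier results of these data to be higher in KO, so its direction is not independent evidence.

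Targets of the integrated stress response, the pathway through which ATF4 induces Fgf21 and Gdf15, showed a mixed picture. Among all 19937 genes 10575 were positive, and 4.06% were higher and 1.79% lower at an unadjusted p under 0.05. Of the 20 target genes 12 were positive, with a median of 0.09, and 3 were higher and 0 lower by that rule. These were the lipoprotein receptor Vldlr (log2 0.52), Nupr1 (0.41) and the early stress factor Atf3 (0.29). Ddit3, which encodes CHOP, differed by 0.25 (-0.07 to 0.56) and Atf4 by -0.12 (-0.40 to 0.16). None of the 20 was higher by that rule when KO replicate 1, WT replicate 3 or KO replicate 3 was left out, the last with a median of -0.02, or with the lymphocyte score in the fit. When KO replicate 2 was left out the median was 0.22, with 4 higher and 2 lower, and 1 was higher when WT replicate 2 was. Hypoxia pathway genes, which include inducers and companions of Vegfa, had 11 of 19 positive, a median of 0.10, and 1 higher and 1 lower. None was higher when WT replicate 1, WT replicate 3 or KO replicate 3 was left out, the median being 0.03 for the last 2 of these, or with the replicate block or the lymphocyte score in the fit. Epas1, a hypoxia-inducible factor subunit of endothelium and fat, was at 10.65, 10.62 and 10.80 in KO and 10.40 to 10.46 in WT (log2 0.26). The glucose transporter Slc2a1, a classical hypoxia target, was lower in every KO array, at 8.36, 8.80 and 8.37 against 8.91 to 9.12 (log2 -0.49, SE 0.15). Hif1a differed by -0.01 (-0.21 to 0.19), Pgk1 by 0.29 and Car9 by -0.20, the last near the olfactory receptor level.

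Likeness of expression was measured as the root mean square difference between profiles centred over the 6 arrays. The rule for naming similar genes required a range over 1 on the log2 scale, and 0 of the 6 genes met it (Nrg4 spanned 0.97). The following were therefore named after their values were seen, for the 3 genes higher in KO, from 11334 genes above the median level. Nrg4 was closest to Pdk2, a pyruvate dehydrogenase kinase (0.050), Ndufb10, a subunit of respiratory complex I (0.051), and the transporter Abca8a (0.052). Pdk2 was at 10.56, 10.42 and 10.91 in KO and 9.92, 10.27 and 9.79 in WT, with the same array highest and the same array lowest as Nrg4. Vegfa was closest to Zfhx4 (0.042), Adcy9, an adenylyl cyclase (0.063), and the integrin Itga1 (0.064). Metrnl was closest to Asap3 (0.013), Snx24 (0.022) and Clstn1 (0.025). With 6 arrays and so many genes, close profiles are common, and these names are a description.

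**Figure D4:**
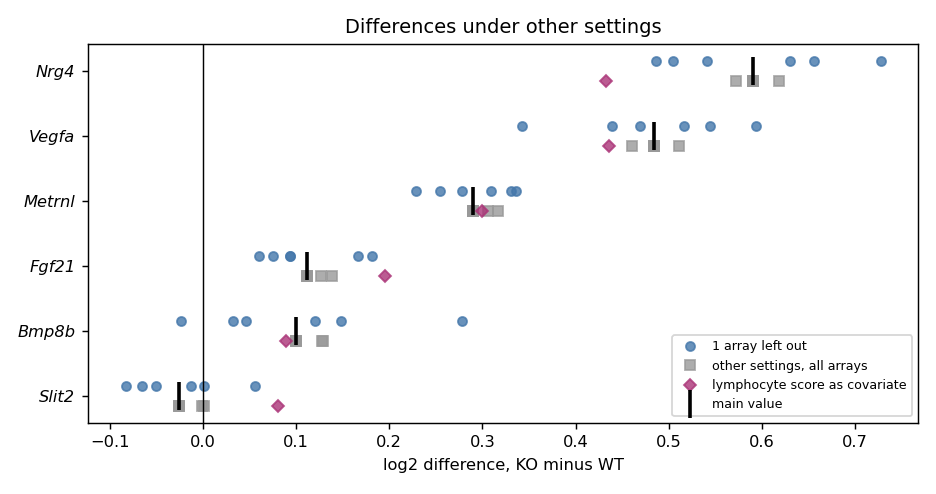
Log2 difference (KO minus WT) of each secreted factor gene with all arrays (black bar), with 1 array left out (blue), under other settings (grey) or with the lymphocyte score added (purple). Nrg4 (0.43 to 0.73), Vegfa (0.34 to 0.59) and Metrnl (0.23 to 0.34) stay above 0 in all of them, while Slit2 and Bmp8b fall on both sides of 0.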

How the data were processed

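RNA from inguinal fat of 3 WT and 3 KO mice was measured on 6 arrays. The deposited table holds log2 expression values per probe set. RMA, affy and limma are named for them, per the submitters' processing notes, without versions, options or genome build. RMA equalizes array distributions, so a change common to most genes is hidden. Groups and replicate numbers came from the titles, and the series describes replicates as mice. No batch is named.

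All 34760 probe sets were fitted with limma 3.58.1 in R 4.3.3 (lmFit, eBayes, KO against WT, two-sided) and p-values adjusted by Benjamini-Hochberg, threshold 0.05. No filter was applied. Intervals and SE are limma's moderated ones. Probe sets were named from the platform table, where 21640 had 1 symbol, 1321 several and 11799 none. List genes used the probe set with the highest mean, and list levels are means of values centred on each gene's mean over the arrays. Lists are counted without a set test. Promoters are RefSeq's (GRCm38.p6). The members and lists were chosen with earlier results of these data known. Named genes are the members, up to 4 genes of smallest p per list, receptors and relatives of each member, and genes of similar profile. Adipoq, Elovl3, Cpt1a, Tek, Pecam1, Mbp, Pmp22, Sox10, Th, Dbh, Atf4, Hif1a and other genes said so in the text were named after their values were seen.

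The fit was tested on simulated data (34760 probe sets, 5 draws): 4.96% of unchanged probe sets had an unadjusted p under 0.05. Alternatives were 1 probe set per gene or the mean of all, other scalings, a filter on dim probe sets, another variance prior, the replicate number as a block, each array left out and a lymphocyte covariate. Same-numbered KO and WT arrays had deviations from their group means correlated at 0.001, 0.033 and 0.044. These values show no sign of pairing by number, but so few arrays cannot exclude it. The number of arrays limits the precision.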

Additional observations from a re-analysis of the deposited data

How the results depend on the processing

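The number of member probe sets higher at an unadjusted p under 0.05 was 3 under 6 of the 7 alternatives with all arrays, but 1 (Nrg4) with the lymphocyte covariate, and 1 to 3 without each array in turn. Probe sets called over the array were 2 with all arrays, 0 with 1 probe set per gene, with the replicate block and with the lymphocyte covariate, 1 when quantile-normalized again or restricted to probe sets above the median level, and 0 to 2 without each array. The list genes at an unadjusted p under 0.05, 26 in all, were 14 with the lymphocyte covariate, 14 to 42 without each array, and 27 with the replicate block. The sign of Slit2 turned with arrays shifted to a common median (0.0016), with the lymphocyte covariate (0.080), and in a range of -0.083 to 0.056 without each array, and that of Bmp8b in a range of -0.024 to 0.28. The replicate block changed no other call among the members (unadjusted p of 0.0216 for Nrg4, 0.0200 for Vegfa and 0.0344 for Metrnl from limma). The causes were not tested, except that fits with a covariate or fewer arrays have fewer residual degrees of freedom by construction. Also by construction, the fit with 1 probe set per gene left out the called Atf7 probe set 10433032. Probe set 10433034 stood for Atf7 there, as its mean was higher (9.33 against 7.74). Fgf21, Bmp8b and Slit2, dimmer than the median probe set, were not tested under the filter on dim probe sets.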
